A study of Arabidopsis thaliana with 6 samples.

Results

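The clade A protein phosphatases 2C (PP2Cs) of Arabidopsis thaliana are *ABI1*, *ABI2*, *HAB1*, *HAB2*, *AHG1*, *AHG3* (also called *PP2CA*), *HAI1*, *HAI2* and *HAI3*. All probes of the array that mapped to these 9 loci were taken, which gave 11 probes of 9 genes among 43603 probes and 25410 matched genes in all. Of these, 3 probes belonged to *AHG3* and 1 to each of the other genes. The rule itself uses gene identity and no measured value, but it was set with earlier results of these arrays known.

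Clade A PP2Cs are the brakes of abscisic acid (ABA) signalling. Without ABA they dephosphorylate and silence SnRK2 kinases such as OST1, and when ABA binds its PYR/PYL receptors, the receptors dock onto the phosphatases and block them, so that the kinases act on anion channels and transcription factors. In guard cells this pathway closes stomata, and ABA also induces the transcripts of several clade A PP2Cs, which is known as a negative feedback on the pathway.

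Transcripts were measured in guard cell protoplasts (GCPs), which are guard cells freed of their walls by enzymes. SL plants had grown for 3 weeks under short days of 8 h light at 100 µmol m-2 s-1 and then for 2 weeks under long days of 16 h light at 41 µmol m-2 s-1, whereas SS plants had stayed under the short days for 5 weeks. Both groups were Columbia plants homozygous for the recessive *gl1* mutation, which removes leaf hairs, and GCPs came from mature rosette leaves. Each of the replicate numbers 1 to 3 stood for an independent batch of plants that gave 1 SL and 1 SS sample, so there were 3 SL and 3 SS arrays in 3 pairs. The labels give ZT16 (hours after lights on) as the time of isolation for SL and ZT8 for SS, while the methods of the study give ZT16 for both. Effects of day length, of the light intensity that changed with it and of a possible difference in time of day cannot be told apart.

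Signals were background corrected, quantile normalized over the 6 arrays and tested on the log2 scale with *limma*, with the plant batch as a block. A gene was called when its adjusted p was under 0.05. Between 65.3% and 70.7% of the probes were well above background on an array, with the lowest share on the SL array of replicate 2, and 0 spots were saturated. All 11 guard cell marker genes examined were well above background on the 3 arrays of at least 1 group, and 0 were called. Of 10 mesophyll markers, *STOMAGEN* was not well above background, and 5 of the other 9 were called lower in SL than in SS (*LHCB3*, *LHCB1.4*, *RBCS1A*, *RBCS2B* and *LHCB2.1*), and 0 without the block or without the pair of replicate 2. Not all mesophyll markers ran this way: *CA1* (log2 difference 0.35, adjusted p = 0.0724) and *GLDP1* (0.25, adjusted p = 0.213) were higher in SL in all 3 pairs without passing the test. The summed signal of the 9 mesophyll markers was 24368 to 45580 on SL arrays and 48448 to 80943 on SS arrays. Most of this sum came from *RBCS1A* (mean 20137 in SL and 39061 in SS) and *RBCS2B* (10148 and 18338). It therefore says little about the other markers, and its part in the values below was not tested. Of 5 phloem markers 2 were called lower (*SEOR2* and *SEOR1*, 0 without the block). The phloem markers did not all run this way: 3 were lower in SL in all 3 pairs and 1 was mixed. *SUC2* was higher in all 3 pairs without passing the test (log2 difference 0.087, adjusted p = 0.549). Of 5 epidermis markers 0 were called. In RNA of a whole preparation, fewer cells of a type and less RNA per cell cannot be told apart.

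*ABI1*, *ABI2*, *HAB1*, *HAB2*, *AHG3*, *HAI1* and *HAI2* were well above background on all 6 arrays. None of these 7 genes was called higher or lower in GCPs from SL plants than in GCPs from SS plants, while 847 of 17997 genes tested were called (4.71%). Their adjusted p-values lay between 0.245 and 0.887 (*limma* with Benjamini-Hochberg adjustment over 28842 probes), and 0 of 7 had an unadjusted p under 0.05, as 24.1% of all probes did. Without the batch as a block, 0 of 7 were called as well, with 0 of 7 at an unadjusted p under 0.05, and that fit called 0 of 28842 probes (0%), of which 1185 (4.11%) had an unadjusted p under 0.05. The SL and SS signals of each of the 7 genes overlapped, and 8.22% of all genes had groups that did not overlap. *AHG1* and *HAI3* were not well above background on any array.

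**Figure D1:**
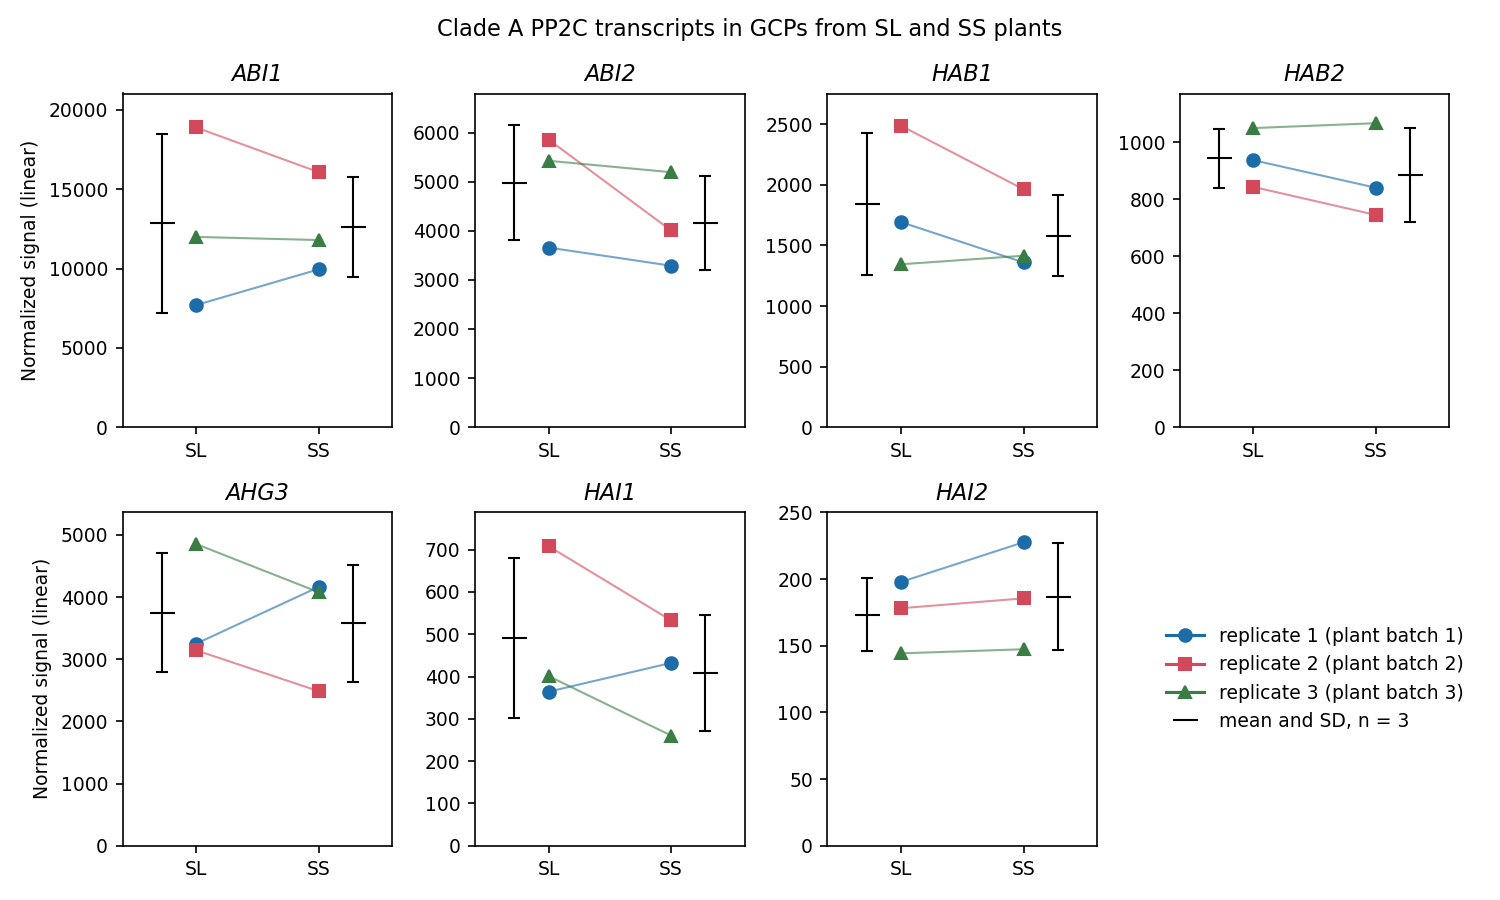
Normalized signal (linear axis starting at 0) of the 7 measured clade A PP2C genes on each array, SL left and SS right, with lines joining the SL and SS arrays of a plant batch and black bars for the mean and SD of 3 arrays. For every gene the SL and SS values overlap, and for *ABI1*, *HAB1* and *HAI1* the red squares of replicate 2 lie highest in both SL and SS.

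ABI1, ABI2, HAB1 and HAB2 form the branch of the clade that is best known from ABA responses of leaves and guard cells. *ABI1* (AT4G26080, chromosome 4) had a normalized signal of 7700.3, 18894 and 11994 on the SL arrays of replicates 1, 2 and 3, against 9949.8, 16075 and 11797 on the SS arrays. SL was below SS in the pair of replicate 1 and above it in the pairs of replicates 2 and 3. The mean was 12863 ± 5647 in SL and 12607 ± 3142 in SS (SD, n = 3 each), and the log2 difference was -0.038 (SE 0.13, adjusted p = 0.887). The SL/SS ratio of the pairs was 0.774, 1.18 and 1.02.

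*ABI2* (AT5G57050, chromosome 5), the closest relative of *ABI1*, had signals of 3658.5, 5858 and 5427 on SL arrays, against 3289, 4007 and 5194 on SS arrays. It was the only one of the 7 that was higher in SL in all 3 pairs, as were 24.6% of all genes, and the ratios were 1.11, 1.46 and 1.04. The means were 4981 ± 1166 in SL and 4163 ± 962 in SS (SD, n = 3 each), with a log2 difference of 0.25 (SE 0.12, adjusted p = 0.245). The pair of replicate 2 contributed most of it, and without that pair the log2 difference was 0.11. Its unadjusted p, 0.0696 from *limma*, was the lowest of the 7 genes.

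*HAB1* (AT1G72770, chromosome 1), which is also known as a phosphatase of OST1, had signals of 1692, 2488 and 1344 on SL arrays, against 1359.8, 1963.5 and 1415 on SS arrays. SL was above SS in the pairs of replicates 1 and 2 and below it in that of replicate 3, and the log2 difference was 0.19 (SE 0.11, adjusted p = 0.336). *HAB2* (AT1G17550, chromosome 1), its closest relative, had signals of 937, 844 and 1050.1 on SL arrays, against 841, 745 and 1067 on SS arrays. Its pairs ran the same way as those of *HAB1*, with ratios of 1.12, 1.13 and 0.984, and the log2 difference was 0.10 (SE 0.087, adjusted p = 0.506). *HAB2* had the smallest standard error of these 4 genes, and its means were 944 ± 103 in SL and 884 ± 166 in SS (SD, n = 3 each).

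AHG1, AHG3 and the HAI proteins form the other branch of the clade. *AHG3* (AT3G11410, chromosome 3), whose product also acts on the anion channel SLAC1, was measured by 3 probes. The brightest gave 3249, 3143 and 4851.5 on SL arrays, against 4162, 2485.5 and 4077 on SS arrays, a log2 difference of 0.077 (SE 0.15, adjusted p = 0.786). The other 2 probes gave log2 differences of 0.071 (SE 0.16) and 0.062 (SE 0.23). All 3 probes were lower in SL in the pair of replicate 1, with ratios of 0.781, 0.754 and 0.614, and higher in SL in the pairs of replicates 2 and 3, with ratios between 1.19 and 1.39. The pairs thus ran in opposite directions on each probe, and a mean near 0 stood beside single ratios as low as 0.614 and as high as 1.39.

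*HAI1* (AT5G59220, chromosome 5) and *HAI2* (AT1G07430, chromosome 1) belong to the highly ABA-induced PP2Cs, after which they are named. *HAI1* had signals of 364, 708 and 401 on SL arrays, against 432, 533 and 260.4 on SS arrays. SL was below SS in the pair of replicate 1 and above it in the other pairs, with ratios of 0.843, 1.33 and 1.54. The log2 difference of *HAI1*, 0.26 (SE 0.17, adjusted p = 0.394), was the largest of the 7 in size, and it had the largest standard error among the brightest probes. *HAI2* had signals of 198, 178 and 144 on SL arrays, against 228, 186 and 147 on SS arrays. It was the only one of the 7 that was lower in SL in all 3 pairs, as were 24.4% of all genes, and the ratios were 0.869, 0.960 and 0.979, with a log2 difference of -0.097 (SE 0.084, adjusted p = 0.524).

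*AHG1* (AT5G51760, chromosome 5), a phosphatase known mainly from seeds, and *HAI3* (AT2G29380, chromosome 2) each had 0 of 6 spots well above background. Spots of *AHG1* had a median pixel intensity of 56, 67 and 66.5 on SL arrays, against 52, 65 and 67 on SS arrays. That of *HAI3* was 51, 65 and 75 on SL arrays, against 46, 78 and 64 on SS arrays. The medians of the negative control spots were 48 to 66, and 2 of 6 spots of each gene exceeded the 95th percentile of the negative controls on their array. No fold difference was computed for either gene.

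**Figure D2:**
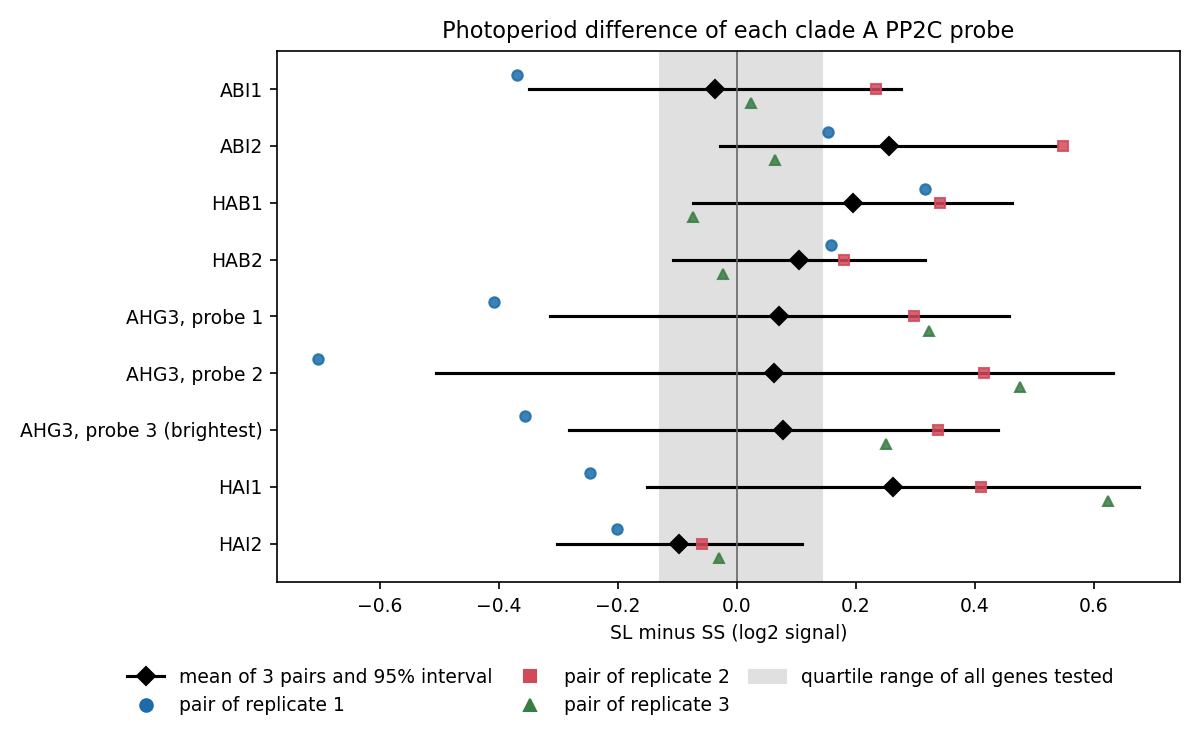
SL minus SS difference in log2 signal for the 9 measured probes of clade A PP2C genes (diamonds, mean of 3 pairs, with the 95% interval from *limma* with the batch as a block), with each pair as a coloured point and a grey band from the lower to the upper quartile of all genes tested (-0.13 to 0.14). All 9 intervals cross 0, and the pair of replicate 1 lies on the other side of 0 from the pairs of replicates 2 and 3 for *ABI1*, *AHG3* and *HAI1*.

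The 95% intervals show which changes these arrays could still hold. They reached from 0.785-fold to 1.21-fold (SL over SS) for *ABI1*, from 0.981-fold to 1.45-fold for *ABI2*, from 0.950-fold to 1.38-fold for *HAB1* and from 0.928-fold to 1.24-fold for *HAB2*. For the brightest probe of *AHG3* the interval was 0.822-fold to 1.35-fold, for *HAI1* 0.901-fold to 1.60-fold and for *HAI2* 0.811-fold to 1.08-fold. Absence of a call therefore did not show equal expression. Among the brightest probes, an increase of up to 59.7% for *HAI1* or a decrease of up to 21.5% for *ABI1* lay within the intervals. The other 2 probes of *AHG3* reached from 0.804-fold to 1.37-fold and from 0.704-fold to 1.55-fold. All these intervals come from the fit with the batch as a block, on signals with an offset added in background correction. *HAI2* was dim, with signals of 144 to 228, where *AHG1* and *HAI3* had 77.4 to 89.1. Its log2 difference was -0.13 with an offset of 0, against -0.097 here. With scaling to the 75th percentile it was -0.18 for the processed intensity and -0.029 for normexp signals. These values lay within the interval of *HAI2*, which was -0.30 to 0.11 in log2. How far the narrow width of this interval rests on the offset was not tested, so it is no firm bound on the change. Without the block each standard error was larger, for *ABI1* 0.35 against 0.13. Over the 7 genes the median log2 difference was 0.10, with 5 genes above 0 and 2 below (*ABI1* and *HAI2*), and over all genes it was 0.0094. *ABI1* was close to 0 and turned to 0.13 and 0.086 under other scalings, and 1 to 4 of the 7 genes were below 0 over all settings. An exact permutation test over 3 SL and 3 SS arrays (two-sided) ignored the pairing. Its p-values for the 7 genes were 0.4 to 1, where 0.1 is the smallest possible. The exact test by sign flips over the 3 pairs (two-sided) gave p = 0.25 for *ABI2* and *HAI2*, the smallest that 3 pairs allow. For the other genes it gave 0.5 or more.

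The deposited intensities showed how much the direction within a pair rested on the normalization. For *ABI1* the median pixel intensity was 16084 on the SL array and 23135 on the SS array of replicate 2, a ratio of 0.695, whereas the normalized ratio of that pair was 1.18. Intensities of the whole SL array were lower there, with an SL/SS ratio of 0.552 at the 75th percentile of the probes, and the ratios at that percentile were 0.850 in the pair of replicate 1 and 1.09 in that of replicate 3. Before normalization, SL was below SS in the pair of replicate 2 for all 7 genes, with ratios of 0.626 to 0.827. All 7 of these ratios were above the 0.552 of the whole array, and the share of all genes above it was not counted. No background was subtracted from these intensities, which matters most for dim probes. *HAI2* had 136 on the SL and 216 on the SS array of this pair, where the negative controls had medians of 64 and 65. After background correction and quantile normalization the ratios of this pair were 0.960 to 1.46. Directions also changed in other pairs. For example, the ratio before normalization was 1.09 and that after it 0.950 for *HAB1* in replicate 3, and 0.969 and 1.11 for *ABI2* in replicate 1.

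The 7 genes were also compared between the plant batches. This comparison was added after the values had been seen. In an F-test of the 3 batches in the same *limma* fit, 6 of the 7 genes passed (adjusted p = 0.0110 to 0.0483), all except *AHG3* (0.0585), and so did 46.0% of all genes. Over the other settings 2 to 6 of the 7 passed, with 2 under normexp signals scaled to the 75th percentile. The mean signal of the SL and SS array of a batch was 8753, 17427 and 11895 for *ABI1* in replicates 1, 2 and 3. It was 1517, 2210.2 and 1379 for *HAB1*, and 397, 614 and 323 for *HAI1*. Between its lowest and highest batch *ABI1* differed by 1.99-fold, *HAI1* by 1.90-fold and *HAB1* by 1.60-fold, and the other 4 genes by 1.34-fold to 1.59-fold. The range over batches was larger than the SL minus SS difference for all 7 genes and for 88.2% of all genes, and its median was 0.67 for the 7 genes and 0.43 for all genes on the log2 scale. A range over 3 values tends to exceed a difference of 2 means, so the share over all genes is the measure to read it against.

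**Figure D3:**
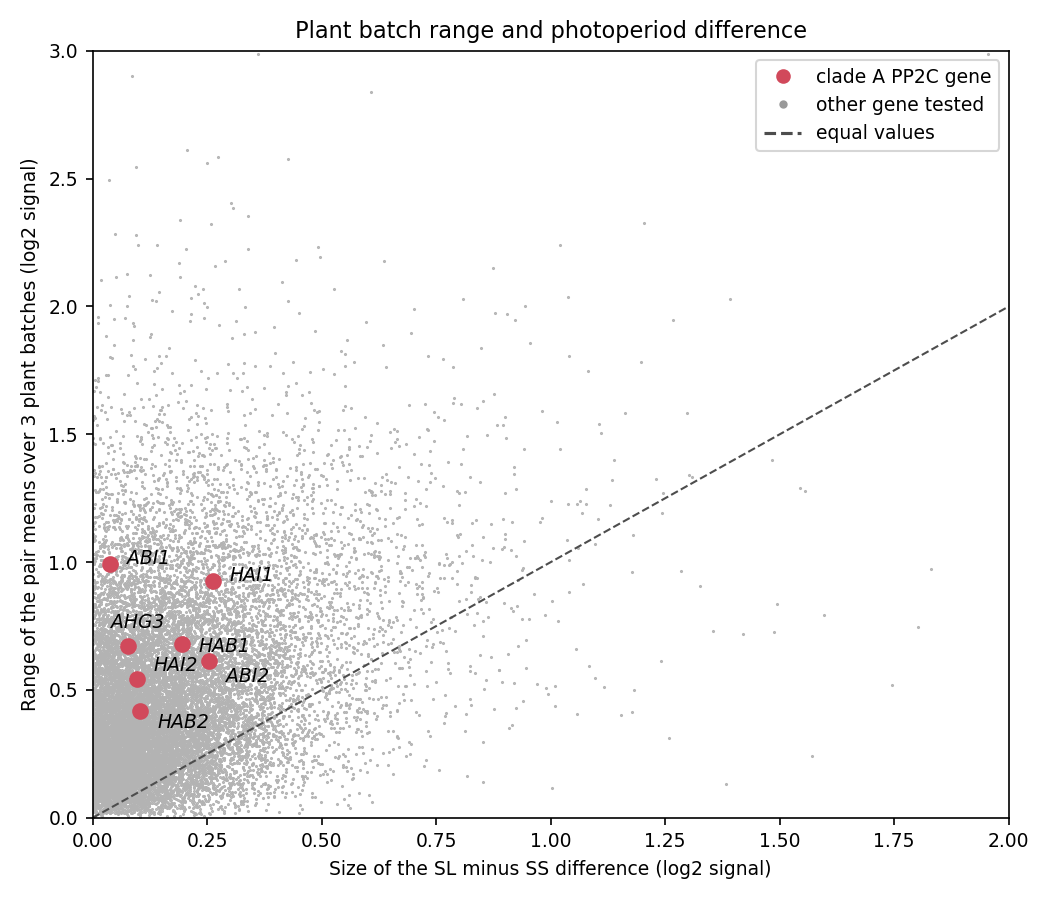
Range of the pair means over the 3 plant batches against the size of the SL minus SS difference, both in log2 signal, for the 7 measured clade A PP2C genes (red, named) and the other genes tested (grey, 4 lie outside the axes). All 7 lie above the dashed line of equal values, as do 88.2% of all genes, and *ABI1* and *HAI1* have the largest ranges of the 7 (0.99 and 0.93).

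The SL and SS arrays of replicate 1 had a slide to themselves, so batch 1 and its slide cannot be told apart, whereas batches 2 and 3 shared a slide. Between batches 2 and 3, 5 of the 7 genes passed the test, and so did 39.4% of all genes (18.3% higher and 21.2% lower in batch 2). *ABI1* was 1.47-fold (log2 0.55, SE 0.16, adjusted p = 0.0368), *HAB1* 1.60-fold (0.68, SE 0.13, adjusted p = 0.0115) and *HAI1* 1.90-fold (0.93, SE 0.21, adjusted p = 0.0170) higher in batch 2 than in batch 3. These 3 genes had their highest array in replicate 2 within SL and again within SS, which 27.8% of all genes did. *HAB2* (log2 -0.42, adjusted p = 0.0258) and *AHG3* (-0.67, adjusted p = 0.0313) were lower in batch 2 than in batch 3. The other 2 probes of *AHG3* gave -0.27 and -0.19 and did not pass (adjusted p = 0.314 and 0.627). All 3 probes were thus lower in batch 2, and the difference between probes was not tested. *ABI2* (-0.13, adjusted p = 0.503) and *HAI2* (0.32, adjusted p = 0.0545) did not pass either. The clade thus did not move as a whole between batches. With normexp signals scaled to the 75th percentile in place of quantile normalization, only *HAB1* and *HAI1* passed, while the log2 differences of *ABI1* (0.72), *AHG3* (-0.53) and *HAB2* (-0.37) stayed in the same direction. *HAI2* passed in 4 of 8 settings, with log2 differences of 0.32 to 0.79.

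Cell type markers differed between the same batches. Of 11 guard cell markers, 7 were lower and 1 was higher in batch 2 than in batch 3, with a median log2 difference of -0.66. Of 9 mesophyll markers, 5 were lower and 0 higher, with a median of -0.50, against -0.013 for all genes. *ABI1*, *HAB1* and *HAI1* thus differed in the direction opposite to most guard cell markers, and *HAB2* and *AHG3* in the same direction. The part that the makeup of the preparations had in the batch differences of the phosphatases was not tested.

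Genes that act with the phosphatases were taken from lists of the core ABA pathway, and PP2Cs of other clades were listed beside them for comparison. All lists were read against the shares of all genes called higher (1.57%) and lower (3.13%) in SL. Of 14 PYR/PYL receptor genes, which encode the ABA sensors that block clade A PP2Cs, 9 were tested, and 1 was called higher and 0 lower in SL. This was *PYL6*, with signals of 3925, 3933 and 3532 on SL arrays, against 2091.5, 2781 and 2457 on SS arrays. The SL and SS arrays did not overlap, and the log2 difference was 0.64 (SE 0.11, adjusted p = 0.0365 with the batch as a block and 0.994 without it). Leaving out the pair of replicate 1 or of replicate 2 ended the call (adjusted p = 0.139 and 0.179). The lowest of the receptors was *PYL9* at -0.042, and the median over the 9 was 0.058.

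The kinases and transcription factors downstream of the phosphatases showed 0 called genes. Of 10 SnRK2 kinase genes 9 were tested, with a median log2 difference of -0.084, from *SNRK2.8* at -0.37 (adjusted p = 0.267) to *SNRK2.4* at 0.13. *OST1*, the SnRK2 kinase best known from guard cells, had signals of 194, 374 and 357 on SL arrays, against 227, 351 and 508 on SS arrays (log2 difference -0.22, SE 0.13, adjusted p = 0.353). Its SL and SS arrays overlapped. Of 8 genes of the ABF/ABI5 family, which are transcription factors activated by SnRK2 kinases, 6 were tested. Their median was -0.17, from *ABF4* at -0.39 (adjusted p = 0.131) to *AREB3* at 0.20.

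Other partners of the clade A PP2Cs did not pass the test either. Of 15 genes for targets and interactors, 12 were tested and 0 were called, with a median log2 difference of 0.0041, from *CIPK26* at -0.16 to *CPK6* at 0.38 (adjusted p = 0.0838). *CPK6* encodes a calcium-dependent kinase that activates SLAC1, and *SLAC1* itself was at 0.0055. Of 8 genes for the turnover or inhibition of clade A PP2Cs, 7 were tested and 0 called, from *EAR1*, an enhancer of phosphatase activity, at -0.38 (adjusted p = 0.185) to *RGLG5*, a ubiquitin ligase for PP2CA, at 0.31 (adjusted p = 0.111). Of 24 PP2C genes of other clades, all were tested, 1 was called higher and 0 lower. *PP2C.D7*, a clade D phosphatase, had signals of 2078, 1436 and 1999 on SL arrays, against 1181, 1053 and 1441 on SS arrays. Its log2 difference was 0.58 (SE 0.10, adjusted p = 0.0411 with the block and 1.00 without it), and the call ended without the pair of replicate 1 (adjusted p = 0.162) or of replicate 2 (0.185). The lowest of this list was *PBCP* at -0.45, a chloroplast phosphatase, and the median of the 24 was 0.091, beside 0.10 for the clade A genes.

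**Figure D4:**
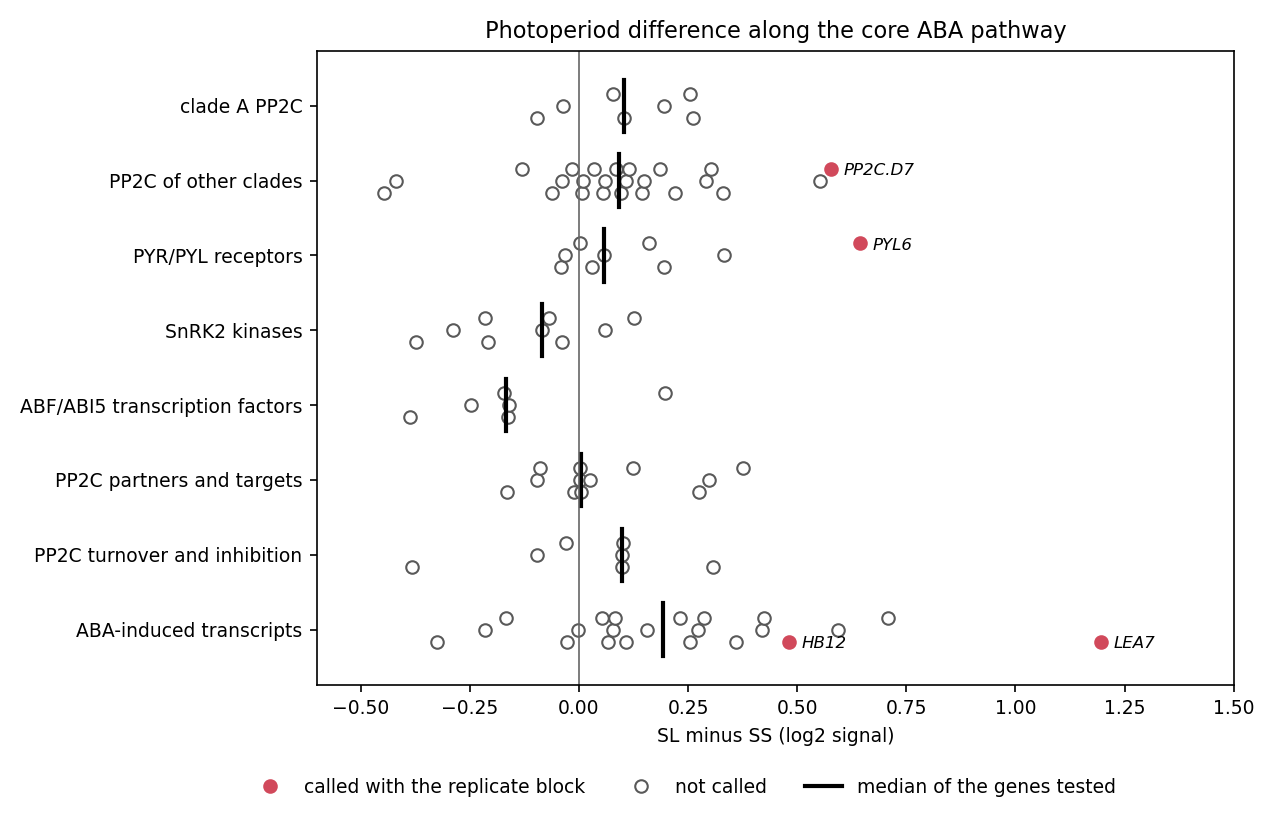
SL minus SS difference in log2 signal of each tested gene in the lists of the ABA pathway and of PP2Cs of other clades. Filled points are genes called with the batch as a block (adjusted p under 0.05) and open points are the others. Black bars give the median of each list. The 7 clade A PP2C genes lie between -0.097 and 0.26, and the 4 called genes are *PP2C.D7*, *PYL6*, *HB12* and *LEA7*, all of them called only with the batch as a block.

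Because clade A PP2C transcripts are known to be induced by ABA, other ABA-induced transcripts were listed beside them. Of 23 such genes, 22 were tested, 2 were called higher and 0 lower in SL, and the median log2 difference was 0.19. This median was 0.38 when the processed intensity was used with scaling at the 75th percentile. In the fit without the block it was 0.075 without the SL array of replicate 3, 0.095 without the SS array of replicate 2, and 0.30 without the SL array of replicate 2 or the SS array of replicate 3. *LEA7*, a late embryogenesis abundant protein, had signals of 1107, 229 and 356 on SL arrays, against 384, 157 and 124 on SS arrays, with a log2 difference of 1.20 (SE 0.20, adjusted p = 0.0362). The SL array was above the SS array of its pair in 3 of 3 pairs, but the SS array of batch 1 lay above the SL arrays of batches 2 and 3. *LEA7* was dim on the SS arrays of replicates 2 and 3, and the size of its difference changed with the processing. It was 1.51 with an offset of 0, and 0.54 to 1.77 over all alternative settings. *HB12*, a homeodomain transcription factor, had signals of 2268, 1474 and 2367 on SL arrays, against 1700.3, 1134 and 1511 on SS arrays, with a log2 difference of 0.48 (SE 0.092, adjusted p = 0.0472). Without the block the adjusted p of *LEA7* and *HB12* was 1.00. Without the pair of replicate 1 it was 0.141 for *LEA7* and 0.162 for *HB12*, without that of replicate 2 it was 0.109 and 0.202, and without that of replicate 3 *HB12* was at 0.0545. The lowest of the list was *COR15A* at -0.33 (adjusted p = 0.153).

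In this list 11 of 22 genes were higher in SL in all 3 pairs and 2 were lower, against 24.6% and 24.4% of all genes and 1 and 1 of the 7 clade A genes. The ABA-induced genes also differed between plant batches, with 18 of 22 past the F-test against 46.0% of all genes. Between batches 2 and 3, 3 were higher and 7 lower in batch 2. *RAB18*, a dehydrin, was 0.482-fold in batch 2 relative to batch 3 (adjusted p = 0.00366), while *AFP1*, a protein that binds ABI5, was 1.61-fold (adjusted p = 0.0167). The list thus had members on both sides, as the clade A genes did. Levels of ABA were not analysed here.

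The 7 genes did not share a single profile over the 6 arrays. Against the mean log2 profile of the 7, Pearson's r over the 6 arrays was 0.86 for *ABI1*, 0.80 for *HAI1*, 0.72 for *HAB1* and 0.67 for *ABI2*, but -0.18 for *HAI2*, -0.21 for *AHG3* and -0.29 for *HAB2*. Each gene is part of that mean, and the arrays share plant batches in pairs, so these values only describe the arrays. The 5 genes whose profile was most like the mean were *ATSAC1B* and AT5G61970 (r = 0.996 each), *CPK26* (0.990) and AT2G02720 and AT1G10890 (0.989 each). Of 17997 genes, 167 had an r above 0.9.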

How the data were processed

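GCPs from SL and SS plants were hybridized to 6 single-colour Agilent arrays, 1 sample each. The authors extracted the spots with Feature Extraction 11.5.1.1, and the deposited intensity values (median pixel intensity and local background of each spot) were not normalized between arrays. After normexp correction (offset 50) and quantile normalization of all 6 arrays, log2 values were taken, using limma 3.58.1 in R 4.3.3. Control spots and outlier spots (3 to 7 per array) were left out. A probe entered if all 3 arrays of SL or of SS had it well above background (28852 probes). Of these, 28842 were tested, since the other 10 had an outlier spot on an array. Probes were matched to genes through accessions in a RefSeq table (34348 of 43603, 78.8%), and a gene was represented by its brightest probe. Coordinates were left out because the builds of the files (TAIR10) and of the table differ. Probe, promoter and protein sequences were not used here, and cross-hybridization between these related genes was not tested.

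SL was compared with SS by limma's moderated test with the replicate number as a block and Benjamini-Hochberg adjustment over all probes tested. The series' description gives each replicate number its own plant batch, and deviations of same-numbered SL and SS arrays from their group means correlated at 0.71, 0.855 and 0.739 across probes, against -0.58 to -0.161 for other pairs. Deviations from a group mean cancel out over the arrays of the group. Positive values for same-numbered arrays therefore make the others negative on average, and the negative values are no separate evidence. The methods of the study name no block for the arrays, so the fit without it was run beside it. Alternatives were the slide as a block, other scalings and filters, the methods' t-test, and each array or pair left out. The number of arrays limits the precision.

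The genes, lists and tests were chosen with earlier results of these data known. All 9 genes are reported. Of each other list, called genes and otherwise the highest and lowest were named, and *OST1*, *SLAC1*, *RAB18* and *AFP1* were added after their values were seen.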

Additional observations from a re-analysis of the deposited data

How the results depend on the processing

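Of the 7 measured clade A PP2C genes 0 were called under every alternative run, the lowest adjusted p being 0.0881 for *HAB1* without the pair of replicate 3. The median log2 difference of the 7 was 0.10 to 0.20 with all arrays and -0.035 to 0.23 with an array or pair left out. *ABI2* kept its direction throughout. That of *ABI1* turned to 0.13 with the processed intensity and to 0.086 with normexp signals, each scaled to the 75th percentile, and ranged from -0.36 to 0.28 with an array or pair left out. In the same way *HAB1* ranged from -0.046 to 0.40, *HAB2* from -0.011 to 0.25, *HAI1* from -0.035 to 0.52, *HAI2* from -0.26 to 0.057, and the probes of *AHG3* from -0.17 to 0.29 (brightest), -0.083 to 0.31 and -0.14 to 0.45. The cause was not tested.

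The number of probes called was 1294 with the replicate number as a block, and 0 without the replicate block, 0 with the slide as a block, 561 with the processed intensity, 47 with scaled normexp signals, 685 with the series matrix values and 0 by the methods' t-test after adjustment (1365 at its threshold). It ranged from 0 to 2607 with a pair or array left out: 51 without replicate 1, 0 without replicate 2 and 2607 without replicate 3, and 0 for any array without the block. Of these 1294 calls 70.2% were lower in SL, and 77.0%, 78.7% and 75.6% in the 3 other scalings, but 53.2% without replicate 3 and 88.2% without replicate 1, so the balance of directions changed with the pairs used. In the pathway lists and the list of PP2Cs of other clades together, 4 genes were called, of which *PP2C.D7* belongs to the latter. The number was 0 without the replicate block, with the slide as a block, with the processed intensity, scaled normexp signals, series matrix values or no filter, and 0 to 9 with an array or pair left out. Of the 7 genes, 2 to 6 differed between the 3 batches and 2 to 6 between batches 2 and 3 over the settings. With scaled normexp signals 2 and 2 did, and with the processed intensity 3 between batches 2 and 3. *HAB1* and *HAI1* passed between batches 2 and 3 in all 8 settings. An alternative with mean pixel intensities was not run because the files used give medians.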
